A study of Homo sapiens with 2 samples.

Results

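CD44, the syndecans SDC1, SDC2, SDC3 and SDC4, the glypicans GPC1 and GPC4 and the hyaluronan synthases HAS2 and HAS3 were examined in HSC-3 cells, cultured either on Myogel or on bare plastic. The 9 genes were chosen by name as surface proteoglycans and the hyaluronan system of epithelial cells. Every probe set annotated to exactly 1 gene symbol among these 9 was taken, which gave 29 of the 54613 probe sets on the array that are not controls, and 9 of the 19775 genes they represent. A probe set is the group of short probes on an Affymetrix array that together measure a transcript.

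These genes encode much of the sugar coat of the cell. CD44 is a transmembrane receptor that binds hyaluronan, a long unsulfated sugar polymer of the matrix, and links it through its tail to the actin cytoskeleton. Syndecans are transmembrane proteins and glypicans are lipid-anchored proteins, and both carry heparan sulfate chains that hold growth factors and bind matrix proteins such as fibronectin and laminin. Hyaluronan synthases sit in the plasma membrane and extrude hyaluronan into the space around the cell. In stratified squamous epithelium CD44 and syndecan-1 are characteristic surface molecules, and CD44 is widely used as a surface marker in squamous carcinoma.

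HSC-3 is an established line from a human oral tongue squamous cell carcinoma, and the cells on both surfaces carried a red fluorescent protein from a lentivirus with a non-coding control sequence. On each surface, 90000 cells were seeded into each of 3 wells and harvested on the next day. The Myogel wells were coated with a protein extract of human uterine leiomyoma, a benign smooth muscle tumour, and the plastic wells were uncoated. The RNA of the 3 wells was pooled, and each surface is represented by 1 array (Affymetrix U133 Plus 2.0). The comparison asks whether the coating changes gene expression. With 1 array on each side it has no replicate check, precision is limited accordingly, and p-values are not given.

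The values are linear intensities with a floor of 1, and the fold change (FC) is the Myogel value over the plastic value. The median intensity over all probe sets was 52.5 on Myogel and 59.7 on plastic, and the median log2 FC was -0.11. Probe sets differ in how strongly they bind their target, so that a value is compared only with the same probe set on the other array and not with another gene. As a measure of spread, the range of log2 FC covering 95% of the 1000 probe sets with the most similar signal is given, called the spread at that signal. Of 8 listed markers of squamous carcinoma 5 were measured, and KRT6A, KRT17 and TP63 were not analysed here. The measured epithelial markers of the line were bright on both arrays, with 18224 on Myogel and 18856 on plastic for the basal keratin KRT14, 3993 and 4385 for E-cadherin (CDH1), and 4998 and 4886 for EPCAM. KRT5, the keratin partner of KRT14, had 10124.5 on Myogel and 11907 on plastic, lower by a log2 FC of -0.23 and outside the spread of -0.23 to 0.14. The desmosomal cadherin DSG3 had 1169 and 1595, and its other probe set had 566 and 858, 1.51-fold lower. Of the smooth muscle markers, which would mark RNA from the tissue of the coating, 6 of 6 were measured. Their summed brightest probe sets came to 1355 on Myogel and 1337 on plastic, 0 were higher and 2 lower by at least FC 1.5, and CNN1 was at the floor on Myogel. The summed levels of the other cell types were 711 and 709 for 6 fibroblast markers (1 higher, 0 lower), 317 and 402 for 5 endothelial markers (1 higher, 3 lower) and 297 and 308 for 3 blood markers (0 higher, 1 lower), Myogel before plastic. The markers counted here as higher or lower all had a mean signal of both arrays under the median over genes (142 units). Of all genes in that range 18.5% were higher and 33.4% lower by at least FC 1.5, and over all genes 9.71% and 17.5%. Whether RNA of other cells had a part in the values below was not tested.

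The genes of this surface coat that gave a clear signal differed little between Myogel and plastic. These were CD44, SDC1, SDC4, GPC1 and HAS3. The largest difference among their brightest probe sets was that of GPC1, which was 1.24-fold lower on Myogel. SDC2, SDC3, GPC4 and HAS2 were dim on both arrays, with values from 1.00 to 78.8. Their probe sets held all of the member changes of at least FC 1.5 other than those of 2 dim CD44 probe sets.

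Of the 29 probe sets, 2 were higher on Myogel by at least FC 1.5, 7 were lower and 20 changed less. This is 6.90% higher and 24.1% lower, where over all probe sets of the array 13.8% were higher and 24.2% were lower. After quantile normalization of the arrays these backgrounds became 18.2% in each direction, while the members stayed at 2 and 7. As deposited, the share of lower probe sets among the members was thus near the background, and that of higher ones was below it. After quantile normalization the 24.1% lower stood above the 18.2%, and the 6.90% higher below it. These shares rest on only 7 and 2 probe sets. The median log2 FC was -0.05 over the members and -0.11 over all probe sets. None of the members combined FC 1.5 with a difference of 100 units, as 1.57% of all probe sets did, and the largest difference of any member was 276 units.

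**Figure D1:**
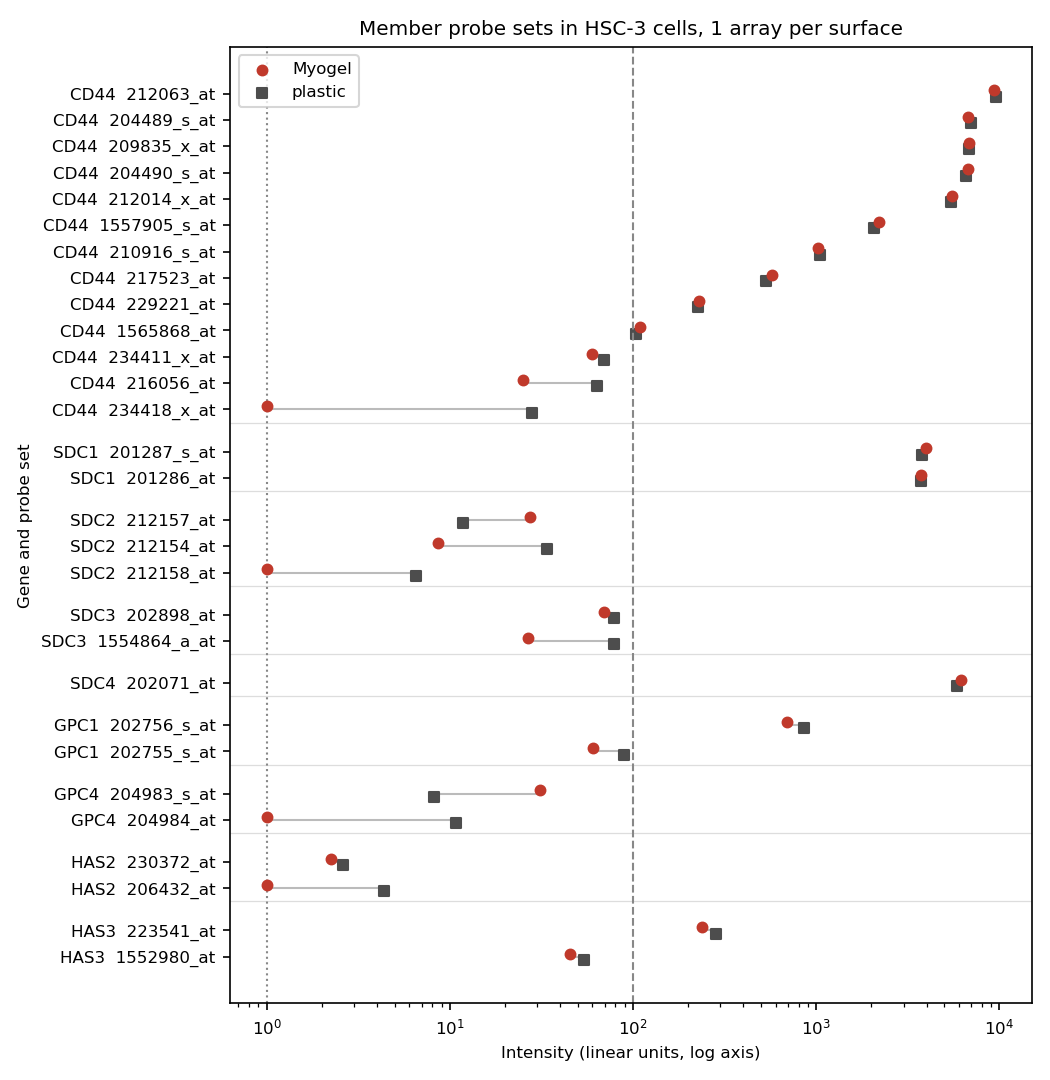
Intensity of each of the 29 member probe sets (x axis, linear units on a log axis) by gene and probe set (y axis), with red circles for the Myogel array and grey squares for the plastic array, 1 array each. The dotted line is the floor of 1 and the dashed line an intensity of 100. To the right of the dashed line the symbols of a probe set lie close together, and to the left they are often apart in either direction.

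Bright and dim probe sets are given apart, since fold changes over the whole array were wider at low signal. The limit was set at a mean signal (geometric mean of both arrays) of 100 after the values had been seen. Of the 15 member probe sets at or above it, 0 reached FC 1.5 in either direction, where 6.75% of the 21633 probe sets of the array in that range did. That share is not matched to their signal. Among the 1000 probe sets nearest in signal it ran from 0.1% for 204489_s_at to 20.2% for 1565868_at, both of CD44. Of the 15, 10 were CD44 probe sets, and all share the same RNA pools. The log2 FCs of the 15 ran from -0.31 to 0.11 with a median of 0.01, against -0.05 for all probe sets in that range, and 10 were higher and 5 lower by any amount. At FC 1.2, 1 of these 15 was lower on Myogel and 0 were higher, and 20.1% of all probe sets in that range were lower by this limit. The share that was higher by this limit was not computed. Of the 14 probe sets under a mean signal of 100, 2 were higher and 7 lower by at least FC 1.5, where 21.4% and 37.1% of the 32980 probe sets in that range were. Of the 29 members 28 lay inside the spread at their signal. The exception was a dim SDC3 probe set at the edge of it.

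**Figure D2:**
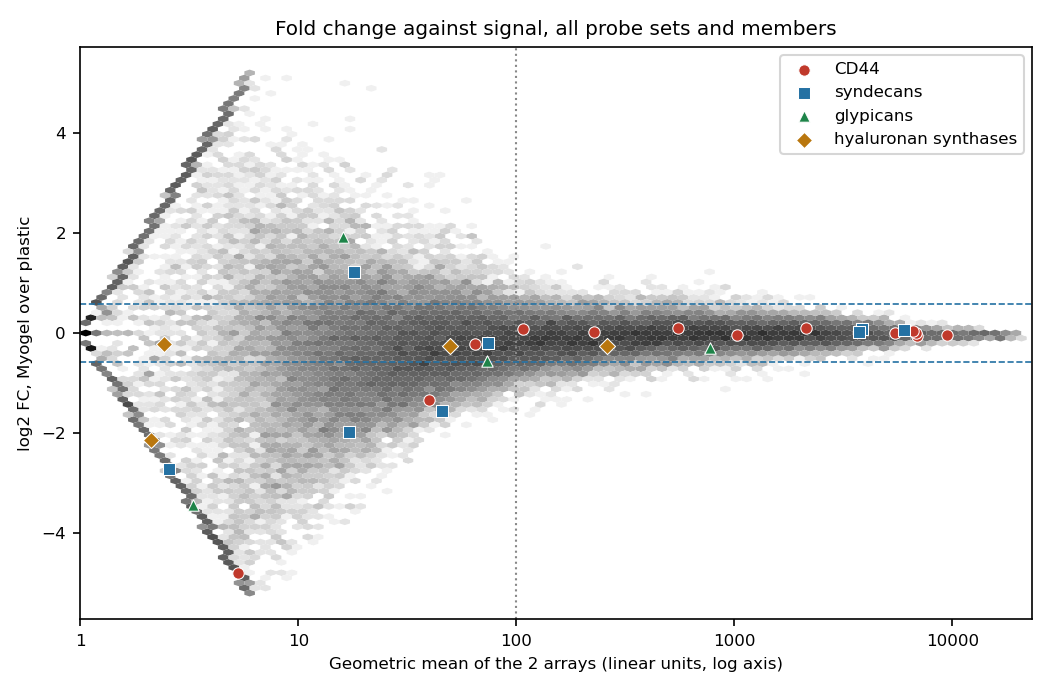
Fold change on a log2 scale, Myogel over plastic (y axis), against the geometric mean of the 2 arrays (x axis, linear units on a log axis). Grey hexagons give the number of probe sets of the whole array, those beyond 5.2 not drawn, and coloured symbols the 29 members. Blue dashed lines mark FC 1.5 and the dotted line a mean signal of 100. The 15 members to the right of it all lie between the blue lines.

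CD44 had 13 probe sets, and 10 of these had a mean signal of at least 100. The brightest (212063_at) had 9300.3 on Myogel and 9521 on plastic, a log2 FC of -0.03. 204489_s_at had 6761 on Myogel and 7019 on plastic. The 3 next in rank were 209835_x_at with 6841 on Myogel and 6817 on plastic, 204490_s_at with 6692 and 6526, and 212014_x_at with 5489.7 and 5465. Of these 5, 204489_s_at had the largest change, 1.04-fold lower on Myogel.

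The other 5 bright CD44 probe sets gave the same picture at lower intensities. They were 1557905_s_at with 2211 on Myogel and 2067 on plastic, 210916_s_at with 1016 and 1049.7, 217523_at with 574 and 533, 229221_at with 230.2 and 226, and 1565868_at with 109.8 and 104. The largest of these differences was the 1.08-fold higher value of 217523_at. Over the 10 bright probe sets the log2 FC was 0.02 ± 0.06 (mean and SD over probe sets, which share the 2 RNA pools and are not replicates), with 7 higher and 3 lower on Myogel. The sign of the 3 lower ones, which include the brightest, turned when the median log2 FC of the array was set to 0. In 253 genes with at least 5 such bright probe sets the median SD of the log2 FC was 0.26, and 3 of these genes had a smaller SD than CD44. Genes were not matched on signal for this count.

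The remaining 3 CD44 probe sets were dim and lower on Myogel. 234411_x_at had 59.45 on Myogel and 69.5 on plastic. 216056_at had 25.1 on Myogel and 63.1 on plastic, 2.52-fold lower, and 234418_x_at was listed at the floor on Myogel and at 28 on plastic. The spread at the signal of 216056_at was -1.46 to 1.5 on the log2 scale and held its log2 FC of -1.33. With all 13 probe sets averaged, the log2 FC of CD44 would be -0.47, a value that these 3, and mostly the floor value of 234418_x_at, take below that of the bright ones. An _x_at probe set holds probes that may bind other transcripts too, which bears on 4 of the 13.

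**Figure D3:**
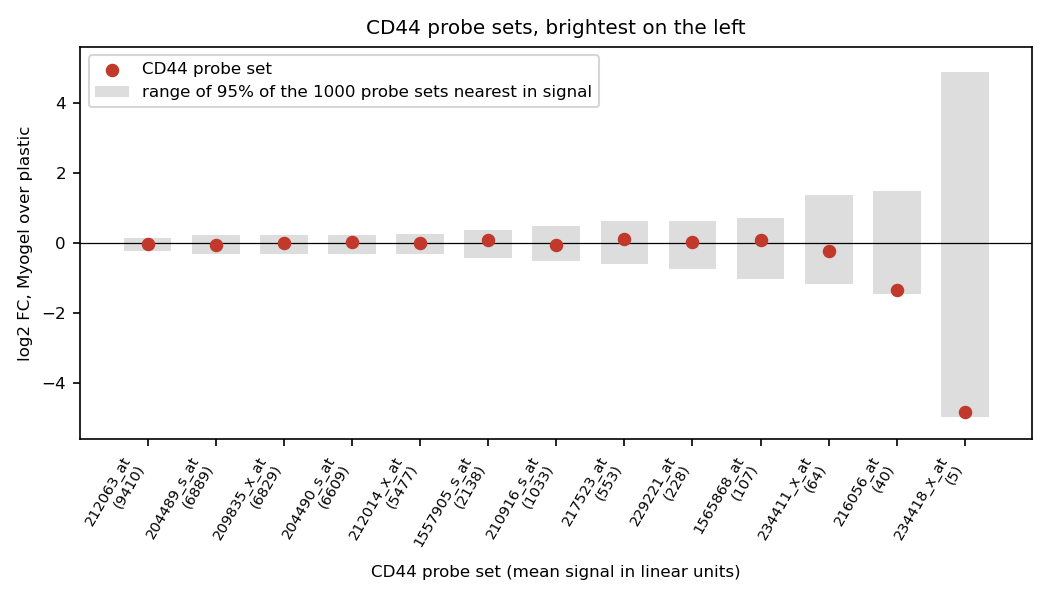
Fold change on a log2 scale, Myogel over plastic (y axis), for the 13 CD44 probe sets, brightest on the left, with the mean signal in linear units in parentheses (x axis). Red points are the probe sets and grey bars the spread at their signal (95% of the 1000 most similar probe sets). The 10 points on the left lie near 0, and the bars widen as the signal falls.

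Among the syndecans, SDC1 and SDC4 were bright and near equal on both surfaces. SDC1, the main syndecan of epithelial cells, had 3967 on Myogel and 3768 on plastic in its brighter probe set (201287_s_at) and 3744 and 3714 in the other (201286_at). These are log2 FCs of 0.07 and 0.01. SDC4, a syndecan of focal adhesions that acts with integrins on fibronectin, had a single probe set with 6163 on Myogel and 5887 on plastic, a log2 FC of 0.07. The spread at these signals was -0.35 to 0.31 for the brighter SDC1 probe set and -0.30 to 0.25 for SDC4. Both genes had slightly higher values on Myogel in each of these probe sets, but the differences were well inside that spread. Quantile normalization, loess centring and setting the median log2 FC to 0 each raised these values. A value already above 0 could therefore not change sign under them.

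SDC2 and SDC3 were dim. SDC2, known as the syndecan of mesenchymal cells, had 3 probe sets, and they did not point the same way. 212157_at had 27.5 on Myogel and 11.8 on plastic, 2.34-fold higher. 212154_at had 8.57 on Myogel and 33.8 on plastic, 3.94-fold lower. 212158_at was at the floor on Myogel and at 6.55 on plastic. Near these signals, between 60.7% and 89.7% of the 1000 nearest probe sets of the array reached FC 1.5 in one direction or the other, so fold changes of this kind are common on these arrays at such signals.

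SDC3, a syndecan best known from the nervous system, was lower on Myogel in both of its probe sets by different amounts. 202898_at had 68.9 on Myogel and 78.8 on plastic, a log2 FC of -0.19, which became 0.00 after loess centring. 1554864_a_at had 26.6 on Myogel and 78.5 on plastic, 2.95-fold lower. Its log2 FC of -1.56 lay just outside the spread of -1.52 to 1.54 and was -1.29 after loess centring.

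GPC1, a glypican with a wide tissue distribution that is also found in carcinoma cells, was lower on Myogel in both probe sets. 202756_s_at had 693 on Myogel and 857 on plastic, and 202755_s_at had 60.6 and 89.2. The log2 FCs were -0.31 and -0.56. The second was 1.47-fold lower and so the member closest to the limit of FC 1.5 from inside. Both stayed lower under the 3 other scalings, between -0.29 and -0.20 for the bright probe set. Both lay inside the spread at their signal, which was -0.58 to 0.51 for the bright probe set.

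GPC4 was dim, and its 2 probe sets went opposite ways. 204983_s_at had 31.2 on Myogel and 8.22 on plastic, 3.79-fold higher and the highest FC of any member. 204984_at was at the floor on Myogel and at 10.8 on plastic. The differences, Myogel minus plastic, were 23.0 and -9.79 units. No direction can be given for GPC4 from these values.

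Of the hyaluronan synthases, HAS3 was detected above the dim range and HAS2 lay at or near the floor. HAS3, an enzyme of epithelial cells, had 239 on Myogel and 285 on plastic in 223541_at and 45.3 and 54.3 in 1552980_at. These are 1.19-fold and 1.2-fold lower, log2 FCs of -0.26 and -0.26, and both stayed below 0 under the 3 other scalings, although that of 1552980_at was -0.00 after loess centring. The spread at the signal of 223541_at was -0.68 to 0.65. A further probe set (228179_at) is annotated to both UTP4 and HAS3 and was left out by the rule, and it had 25.9 on Myogel and 44.9 on plastic. HAS2, the synthase typical of fibroblasts and of cells that change towards a mesenchymal state, had 2.23 on Myogel and 2.61 on plastic in 230372_at, and it was at the floor on Myogel and at 4.39 on plastic in 206432_at. The RNA came from whole cultures, in which fewer cells that express a gene and less RNA per cell cannot be told apart.

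Taking the brightest probe set for each gene, 2 of the 9 genes were higher by at least FC 1.5, 0 were lower and 7 changed less. Over all 19775 genes 9.71% were higher and 17.5% were lower. Both higher genes, SDC2 and GPC4, were in the dim range, and each had another probe set that was lower or at the floor on Myogel. With the mean over all probe sets of a gene instead, 0 were higher and 4 were lower, and SDC2 and GPC4 turned negative (-1.16 and -0.75 in log2 FC). The share over all genes with that mean was not computed. The median log2 FC was -0.03 over the 9 genes by their brightest probe sets and -0.07 over all genes.

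Genes that make, trim and read these sugar chains were examined in 9 lists with 85 names, of which 77 were measured and 8 were not analysed here. By at least FC 1.5, 8 were higher and 9 lower on Myogel, while 60 changed less. That is 10.4% higher and 11.7% lower, beside the 9.71% and 17.5% of all genes. After quantile normalization or loess centring these counts were 11 higher and 7 lower (14.3% and 9.09%). The shares over all genes moved as well, to 13.2% higher and 12.9% lower after quantile normalization and 13.3% and 12.9% after loess centring. The median log2 FC of the 77 genes was -0.04 as deposited and 0.05 after either of these scalings. The brightest of the genes with such a change had a mean signal of 57.3. The median signal over genes was 142 units, and of the 41 listed genes that reached it 0 changed by FC 1.5, where 2.59% of all genes in that range had.

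**Figure D4:**
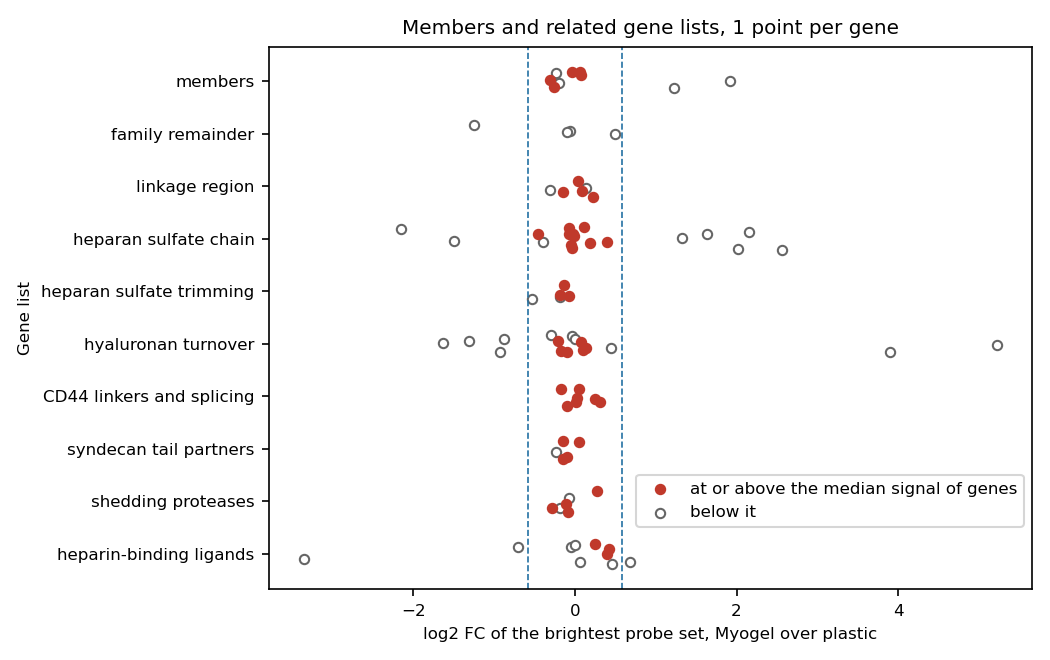
The log2 FC of Myogel over plastic (x axis) of the brightest probe set of each gene, in the 9 members and in the 9 related lists (y axis), 1 point for each gene with the vertical offset within a list arbitrary. Filled points are genes whose signal reached the median over genes and open points dimmer genes, and dashed lines mark FC 1.5. The filled points lie between the lines and the open points on both sides of them.

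The bright enzymes of heparan sulfate synthesis stayed within FC 1.5 in their brightest probe sets, while a further probe set of EXTL3 did not. Of the 6 measured genes of the linkage region, the sugar stem that joins a chain to its core protein, 0 passed FC 1.5 in their brightest probe sets. The median signal was reached by 4 of the 6, and 2.59% of all genes in that range passed FC 1.5 in either direction. The largest change among the bright ones was that of B4GALT7, the galactosyltransferase that adds the first galactose of the stem, with 634 on Myogel and 543 on plastic. EXT1 and EXT2 form the polymerase of the chain and were singled out after their values had been seen. EXT1 had 4632 on Myogel and 4719.6 on plastic, and EXT2 had 1576 and 1462. Among the 18 measured genes for polymerisation and sulfation of the chain, 5 were higher and 2 lower by at least FC 1.5, which is 27.8% and 11.1% beside the 9.71% and 17.5% of all genes. All 7 were under the median signal, where 18.5% of all genes were higher and 33.4% lower.

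The 7 sulfation and chain genes beyond FC 1.5 are named here after their values were seen. EXTL1 had 51.3 on Myogel and 8.72 on plastic, HS3ST2 had 28.2 and 6.96, HS3ST3A1 had 13.6 and 3.06, NDST4 had 19.0 and 7.58, and HS3ST5 had 17.0 and 5.48. The lower genes were HS6ST3 with 8.38 on Myogel and 37.2 on plastic, and NDST3, at the floor on Myogel and at 2.82 on plastic. Of the bright genes EXTL3, which helps to start the chain, had the largest change, followed by the sulfotransferase HS3ST1 (chosen after its values had been seen) with 887 on Myogel and 671 on plastic. The probe sets of EXTL3 went opposite ways, with 402 on Myogel and 551 on plastic in 209202_s_at and 285 on Myogel and 134 on plastic in 211051_s_at. In 211051_s_at it was 2.12-fold higher and outside the spread at its signal.

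Of the 5 genes that trim the chain or free glypicans from the surface, 0 passed FC 1.5 in their brightest probe sets. The median signal was reached by 3 of the 5, and 2.59% of all genes in that range passed FC 1.5 in either direction. NOTUM, a secreted lipase that acts on Wnt proteins and for which glypicans have been described as targets, had the largest change among the bright ones, with 211 on Myogel and 239.6 on plastic. SULF2, which removes sulfate groups, had 725 on Myogel and 762 on plastic, and heparanase (HPSE) had 557 and 609. Both were chosen after their values had been seen. In the family remainder, GPC2, GPC3, GPC5 and GPC6 were measured and HAS1 was not analysed here. Only GPC2 passed FC 1.5, with 26.2 on Myogel and 62.4 on plastic, and none of the 4 had a mean signal as high as 100. Of all genes under the median signal, 18.5% were higher and 33.4% lower by at least FC 1.5.

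Of the 16 measured genes of hyaluronan precursors, breakdown and binding, 2 were higher and 4 lower by at least FC 1.5 (12.5% and 25%). Over all genes 9.71% were higher and 17.5% lower. The genes with such a change were all under the median signal, where 18.5% of all genes were higher and 33.4% lower. HMMR, a hyaluronan-binding protein that also serves at the mitotic spindle, had the largest change among the bright genes, with 4089 on Myogel and 4713 on plastic, and its other probe set had 2042 and 2412. UGDH, which makes the glucuronic acid precursor, had 1129.9 on Myogel and 1027 on plastic. The hyaluronidase HYAL2 had 823 and 765, and CEMIP2, a surface protein described as a hyaluronan-degrading enzyme, had 570.4 and 611. UGP2 of the same list had 5241 on Myogel and 5912 on plastic. UGDH, HYAL2, CEMIP2 and UGP2 were named outside the rule, after their values had been seen. The genes beyond FC 1.5 were dim and are named after their values were seen. HYAL3 and HAPLN3 were at the floor on plastic and had 14.9 and 37.4 on Myogel, while LYVE1, TNFAIP6, HAPLN1 and VCAN had 9.16, 14.4, 32.1 and 14.6 on Myogel against 28.5, 26.5, 61.0 and 36.0 on plastic.

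Of the CD44 linkers and splicing regulators, 0 of 7 measured genes passed FC 1.5 in their brightest probe sets. Of the partners of the syndecan tails it was 0 of 5. In these 2 lists 7 and 4 genes reached the median signal, where 2.59% of all genes passed FC 1.5 in either direction. NF2, the merlin protein that competes with ezrin-type linkers for the CD44 tail, had the largest change of the first list, with 2187 on Myogel and 1759.9 on plastic. Of its 8 probe sets, 3 were higher and 5 lower, among them 211092_s_at with 66.1 on Myogel and 151 on plastic, 2.28-fold lower and outside the spread of -0.98 to 0.72. The linkers ezrin (EZR) and moesin (MSN) had 2739 and 7029 on Myogel and 2297 and 6809 on plastic. ESRP1, an epithelial splicing regulator that promotes the variant exons of CD44, had 4466 on Myogel and 4425 on plastic. Syntenin (SDCBP), which binds the end of syndecan tails, had 8699 and 8361. PRKCA, a kinase that binds syndecan-4, had 686 and 761, the largest change among the 4 bright genes of the second list. All 5 PRKCA probe sets were lower on Myogel. Of the dim ones, 206923_at had 7.01 on Myogel and 37.0 on plastic, inside the spread at its signal. 215194_at was at the floor on Myogel and at 48.8 on plastic, a log2 FC of -5.61, just outside the spread of -5.54 to 5.49. SYNPO, an actin-binding protein just under the median signal, had 125 and 147. EZR, MSN, ESRP1, SDCBP and SYNPO were chosen after their values had been seen.

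Proteases that release the outer parts of CD44 and syndecans likewise stayed within FC 1.5 in the brightest probe sets of 6 of 6 measured genes. Over all genes 9.71% were higher and 17.5% lower. MMP9 had 245 on Myogel and 297 on plastic, the largest change among the bright ones by a small margin. MMP14, which cuts CD44 at the surface, had 2400.1 and 1983, and the sheddases ADAM10 and ADAM17 had 3909 and 1973 on Myogel and 4204 and 2093 on plastic. MMP14, ADAM10 and ADAM17 were named outside the rule, after their values had been seen. Among the growth factors that heparan sulfate holds, 10 were measured. FGF7 was higher (23.5 on Myogel, 14.6 on plastic) and FGF1 (44.8 and 73.2) and WNT5A (2.26 and 23.1) were lower by at least FC 1.5. All of these were dim and are named after their values were seen. Of all genes under the median signal, 18.5% were higher and 33.4% lower. VEGFA had the largest change of the bright ones, with 1220.2 on Myogel and 913 on plastic, 1.34-fold higher and inside the spread of -0.54 to 0.49 for its log2 FC of 0.42. Of its 4 probe sets 3 were higher.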

How the data were processed

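RNA pooled from 3 wells of HSC-3 cells was hybridised to 1 Affymetrix U133 Plus 2.0 array for Myogel and to another for plastic. Samples were assigned by title. A treatment protocol label gives uncoated plates for both samples, while the title, the source name and the methods of the study give a coating for the Myogel sample. The deposited intensity values are linear and were made by the authors with dChip, and its version, model and normalization were not given in the sources used here. No detection calls were used.

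FC was the ratio of the Myogel intensity to the plastic intensity, unscaled, and FC 1.5 was the limit, as in the methods of the study. The study reports a far smaller share of genes at FC 1.5 than the 13.8% of probe sets higher and 24.2% lower here. The calls are thus not alike, and the counts are not comparable. Probe sets were named from the platform annotation, with symbols updated through RefSeq (GRCh38.p14) by gene identifier. Of 54613 probe sets, 41091 had 1 symbol, 1801 had several and 11721 are unnamed here. A gene was represented by its brightest probe set (mean of both log2 values). The spread at a signal covers 95% of the 1000 nearest probe sets. 

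All members were named with every probe set. In each related list the rule named, among genes that reached the median signal, up to 3 higher and 3 lower by FC 1.5, or else the one with the largest change. The members and lists were chosen with earlier results of these data known, and the limit of 100 units for bright probe sets after the values had been seen. Alternatives were quantile normalization, loess centring (span 0.3), median centring, offsets of 16 and 50, a filter on low signal, probe set types, limits of FC 1.2 and FC 2, a difference of 100 units, and the mean over probe sets. The scripts were tested on simulated data and used Python 3.11.15, statsmodels 0.14.6, matplotlib 3.10.9, pandas 2.3.3 and numpy 2.4.6.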

Additional observations from a re-analysis of the deposited data

How the results depend on the processing

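The counts of member probe sets by at least FC 1.5, 2 higher and 7 lower, were the same after quantile normalization, loess centring and median centring. They rested on dim probe sets. An offset of 50 left 0 higher and 3 lower, the filter on low signal 0 and 2, and a difference of 100 units, or a mean signal of at least 100 (added after the data were seen), 0 and 0. With probe sets of the types _x_at, _s_at or _a_at left out 1 was higher. The median log2 FC of the members was 0.053 with the median of the array set to 0 and -0.21 without these types. For genes, where 2 were higher and 0 lower, an offset of 16, and likewise leaving out these probe sets, gave 1 higher and 1 lower. An offset of 50, the filter, and the difference of 100 units gave 0 higher. FC 1.2 gave 1 lower, and the mean over probe sets gave 0 higher and 4 lower. Shares over all genes were not computed for these alternative gene counts, nor shares over all probe sets for the offsets, the filter and the probe set types. Whether such shifts are particular to the members was not tested. SDC2 had a log2 FC of -1.02 with an offset of 16, -0.52 with an offset of 50 and -1.16 with the mean over probe sets. With the offsets another of its probe sets became the brightest. GPC4 had -3.43 without the _s_at probe set and -0.75 with the mean. SDC1 and SDC4 stayed above 0 (0.01 to 0.18 and 0.07 to 0.17) and GPC1 and HAS3 below 0 (-0.43 to -0.20 and -0.26 to -0.15) under every alternative that gave a value. For these genes the offsets and the filter kept the same probe set and could not change a sign. Quantile normalization, loess centring and median centring raised all of these values, so they could change only a sign below 0. SDC4 has a single probe set, so none of the alternatives could change its sign. No value could be had for GPC1 without _s_at probe sets, nor for SDC2, GPC4 and HAS2 under the filter. No paired analysis was possible because each surface is 1 array. Signal over background limits what can be said of SDC2, SDC3, GPC4 and HAS2.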
